A study of Mus musculus with 19 samples.

Results

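The 8 lines described here were grown from picked GFP-positive colonies of mouse embryonic stem (ES) cells that had first been differentiated and then cultured with AICAR. They were divided into colony lines 1, 4, 5 and 7 and colony lines 3, 6, 9 and 10, 8 samples in all of the 19 in the study. The division was chosen on measured values, the reads of Zscan4c and Rpl35a, so every gene below is described and none was tested for a difference between the sets. Zscan4c had 217, 318, 161 and 295 reads in lines 1, 4, 5 and 7 and 1198, 726, 572 and 1063 in lines 3, 6, 9 and 10. Rpl35a had 3893, 3740, 3718 and 3056 reads against 5157, 4762, 4953 and 4804. The lines nearest to the boundary were line 4, with 318 reads of Zscan4c, and line 9, with 572. For Rpl35a they were line 1, with 3893 reads, and line 6, with 4762.

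All libraries derive from Rex1 GFPd2 cells, ES cells in which a destabilised green fluorescent protein reports Rex1 (Zfp42), a gene of the naive pluripotent state. Cells were differentiated for 2 days in serum medium, sorted as negative for SSEA1 and GFP, and kept in that medium with AICAR to day 15. AICAR is a nucleoside whose phosphorylated form resembles AMP and so switches on AMPK, a kinase that senses low energy. The 8 colony lines and 2 sorted lines (grown from sorted GFP-positive cells) were then expanded in medium with LIF and 2 kinase inhibitors (against MEK and GSK3) and passaged every 3 to 4 days. They are labelled undifferentiated and GFP-positive, and their treatment label names this medium and not AICAR. Beside them stand 1 library of undifferentiated cells in the same maintenance medium, never differentiated, and 3 libraries of AICAR GFP-positive cells taken at day 15. The labels give neither passage number nor whether a line is 1 clone, and the sets share the reporter, the treatment and the maintenance medium.

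ES cultures in LIF and kinase inhibitors are not uniform. At any moment a small share of the cells passes through a state with transcripts of the 2-cell embryo, of which the Zscan4 cluster is the best-known marker. Zscan4 proteins are known for a role in telomere maintenance, while Rpl35a encodes a protein of the large ribosomal subunit. In RNA from bulk cultures, fewer cells in such a state and less RNA per cell cannot be told apart.

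Levels are given as CPM, reads scaled to a common library size. The ratio is the log2 of the mean CPM of lines 1, 4, 5 and 7 over that of lines 3, 6, 9 and 10, and its standard error (SE) comes from the spread within the sets. The sets do not overlap where all 4 lines of 1 set lie above all 4 of the other. Of 11327 entries with a mean of at least 10 reads over the 8 lines, 1352 (11.9%) lay higher in lines 1, 4, 5 and 7 with no overlap and 1412 (12.5%) lay lower. With a ratio of the means of at least 1.5-fold as well, 129 (1.14%) lay higher and 206 (1.82%) lower. These percentages are the background for each list below. Ratios reached 2-fold for 22 of the genes that lay higher and 74 of those that lay lower.

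Gene length and GC content moved with the split over the whole table. In the eighth of the entries with the shortest gene models (30 to 733 bases) the median ratio was -0.21 and 34.0% lay lower with no overlap. In the eighth with the longest (3508 bases and more) it was 0.18 and 35.0% lay higher. Over eighths of transcript GC content the median ratio went from 0.11 in the lowest to -0.12 in the highest. Mapped reads that fell into gene models made up 41.5 to 45.8% in lines 1, 4, 5 and 7 and 46.3 to 47.8% in lines 3, 6, 9 and 10, with no overlap. Total reads in genes overlapped, at 5937370 to 7160446 and 6763306 to 7370560. Each ratio is therefore given again, where it matters, with every library centred within 50 bins of gene length. After that centring 1015 entries (8.96%) lay higher and 948 (8.37%) lower with no overlap. With at least 1.5-fold the numbers were 127 (1.12%) and 163 (1.44%), and these included 91 of the 129 and 140 of the 206 above. The part of length, GC content and the share of reads in gene models in the other ratios was not tested.

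**Figure D1:**
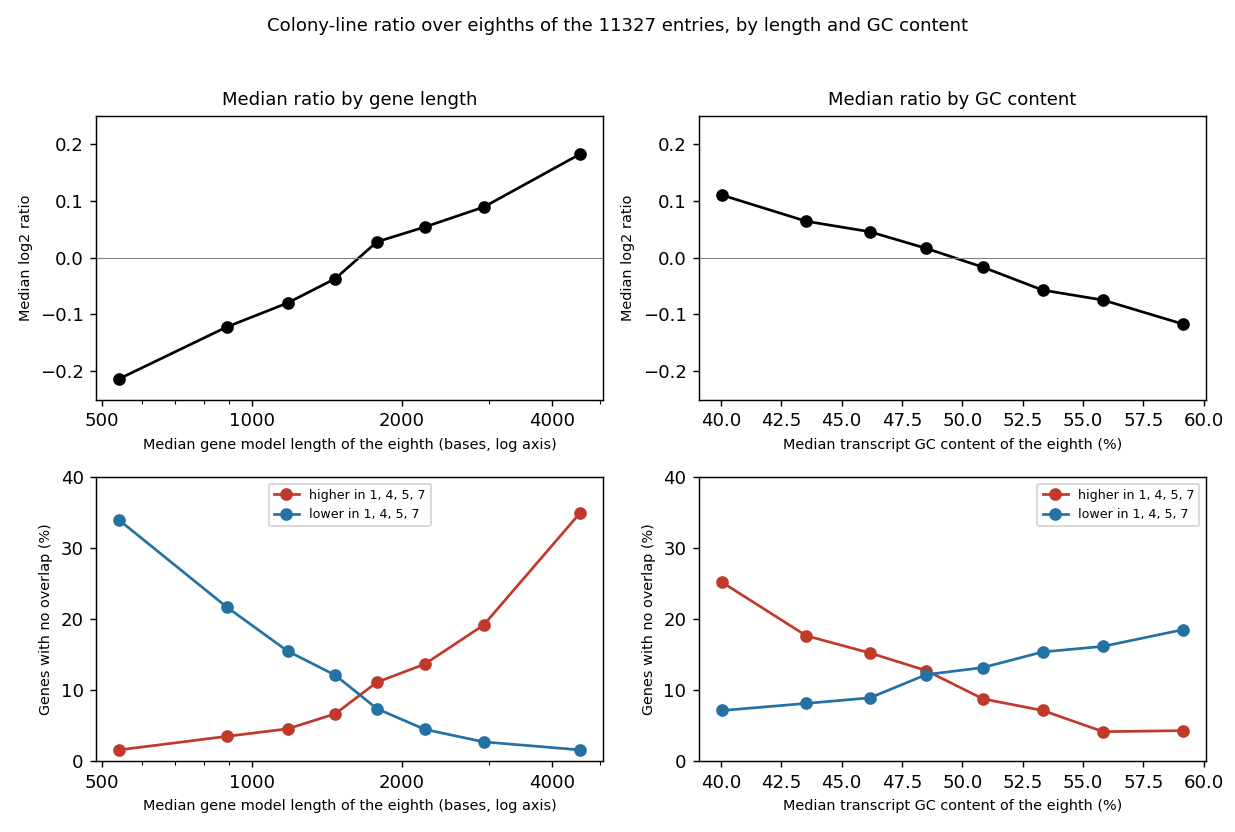
Median log2 ratio (top) and percentage of entries with no overlap between the sets (bottom) over eighths of the tested entries, ordered by gene model length in bases on a log axis (left) and by transcript GC content in percent (right). Short models lay lower in lines 1, 4, 5 and 7 (34.0% of the shortest eighth), long models higher (35.0% of the longest eighth).

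Genes of the 2-cell-like state outside the Zscan4 cluster were lower in lines 1, 4, 5 and 7 for 10 of the 19 measured. All 6 measured Zscan4 copies lay below with no overlap, with ratios from -1.77 to -1.64. They are near-identical neighbours on chromosome 7 and the counting could split their reads, so they are close to 1 measurement, and the split was chosen on them. Of the 19 genes outside the cluster, the 10 lay lower with no overlap, 9 of them by at least 1.5-fold, 9 overlapped and 0 lay higher. The summed CPM of all entries of this list, with no filter on reads, overlapped as well, with line 7 at 736 and line 9 at 732. The median ratio of the 19 was -1.30 and was also -1.30 after centring by length, beside -0.0053 over all entries. Entries that join several gene names were not counted in this list. Some were among the 15 smallest ratios, with no overlap. An entry joining Gm20765, Gm4340 and others on chromosome 10 had means of 96.3 against 330 CPM (-1.78). BB287469+Gm4027 had a ratio of -1.70, and Gm12794, a single name not on the list, -1.76. Other joined entries were not examined as a group.

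Gm8300, a gene of a family expressed with Zscan4 in the 2-cell embryo, had 5.33, 7.88, 3.33 and 7.58 CPM in lines 1, 4, 5 and 7. In lines 3, 6, 9 and 10 it had 27.8, 13.4, 11.7 and 19.9 CPM. The means were 6.03 ± 2.13 and 18.2 ± 7.34 CPM (SD, n = 4), a ratio of -1.60 with an SE of 0.39. Lines 3 and 10 were high, line 5 was lowest, and the sets did not overlap. Its relatives Gm5039 (ratio -1.67), Gm5662 (-1.59), Gm2016 (-1.56) and Gm2022 (-1.55) lie with it on chromosome 12 and may share reads with it. The ubiquitin-specific protease genes Usp17lb (-1.80), Usp17lc (-1.50) and Usp17la (-1.30) on chromosome 7 and Gm13119 on chromosome 4 (-2.05) also lay lower, at levels of at most 5.02 CPM. Fbxo15, an F-box gene of ES cells, lay lower by less, at a ratio of -0.40.

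Within lines 3, 6, 9 and 10, line 3 was highest for 7 of the 10 genes and line 9 lowest for 9 of the 10. For the 6 Zscan4 copies the counts were 6 and 6. Within lines 1, 4, 5 and 7 the highest of the 10 genes lay in line 7 for 5, line 4 for 4 and line 5 for 1, and the lowest were spread over all 4 lines. The sorted lines, which had no part in the division, had 16.1 and 18.7 CPM of Gm8300, inside the range of lines 3, 6, 9 and 10. Both sorted lines lay nearer to lines 3, 6, 9 and 10 for all 10 genes, judged by the midpoint between the set means on the log2(CPM + 0.5) scale. The undifferentiated library did so for 4 of the 10, with 10.3 CPM of Gm8300. In the AICAR GFP-positive cells Gm8300 was at 0.291, 0.127 and 0.751 CPM.

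Known regulators of the 2-cell-like state were mixed. Of 28 measured, 7 lay higher in lines 1, 4, 5 and 7 with no overlap, 3 lay lower and 18 overlapped, with a median ratio of 0.04. After centring by length 4 lay higher and 3 lower. The regulators named next were all among the 7, and the lowest ratio on the list was -0.22. Rif1, a repressor of Zscan4 and 2-cell genes, had 946, 1003, 907 and 951 CPM against 687, 674, 595 and 688 CPM. That is 952 ± 39.4 against 661 ± 44.7 CPM (SD, n = 4), a ratio of 0.53, or 0.28 after centring by length. Smchd1 (0.28) and Zmym2 (0.24), both repressors as well, have long gene models. After centring by length their ratios were 0.07 and 0.07, and their sets overlapped. Zfp57, a zinc finger protein that protects imprints, lay higher at 764 ± 20.8 against 589 ± 24.3 CPM (SD, n = 4) and kept a ratio of 0.33 after centring. Among 20 telomere maintenance genes 4 lay higher and 2 lower, and 2 and 1 after centring by length. The chromatin remodeller Atrx stood out of these with a ratio of 0.56, or 0.31 after centring.

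**Figure D2:**
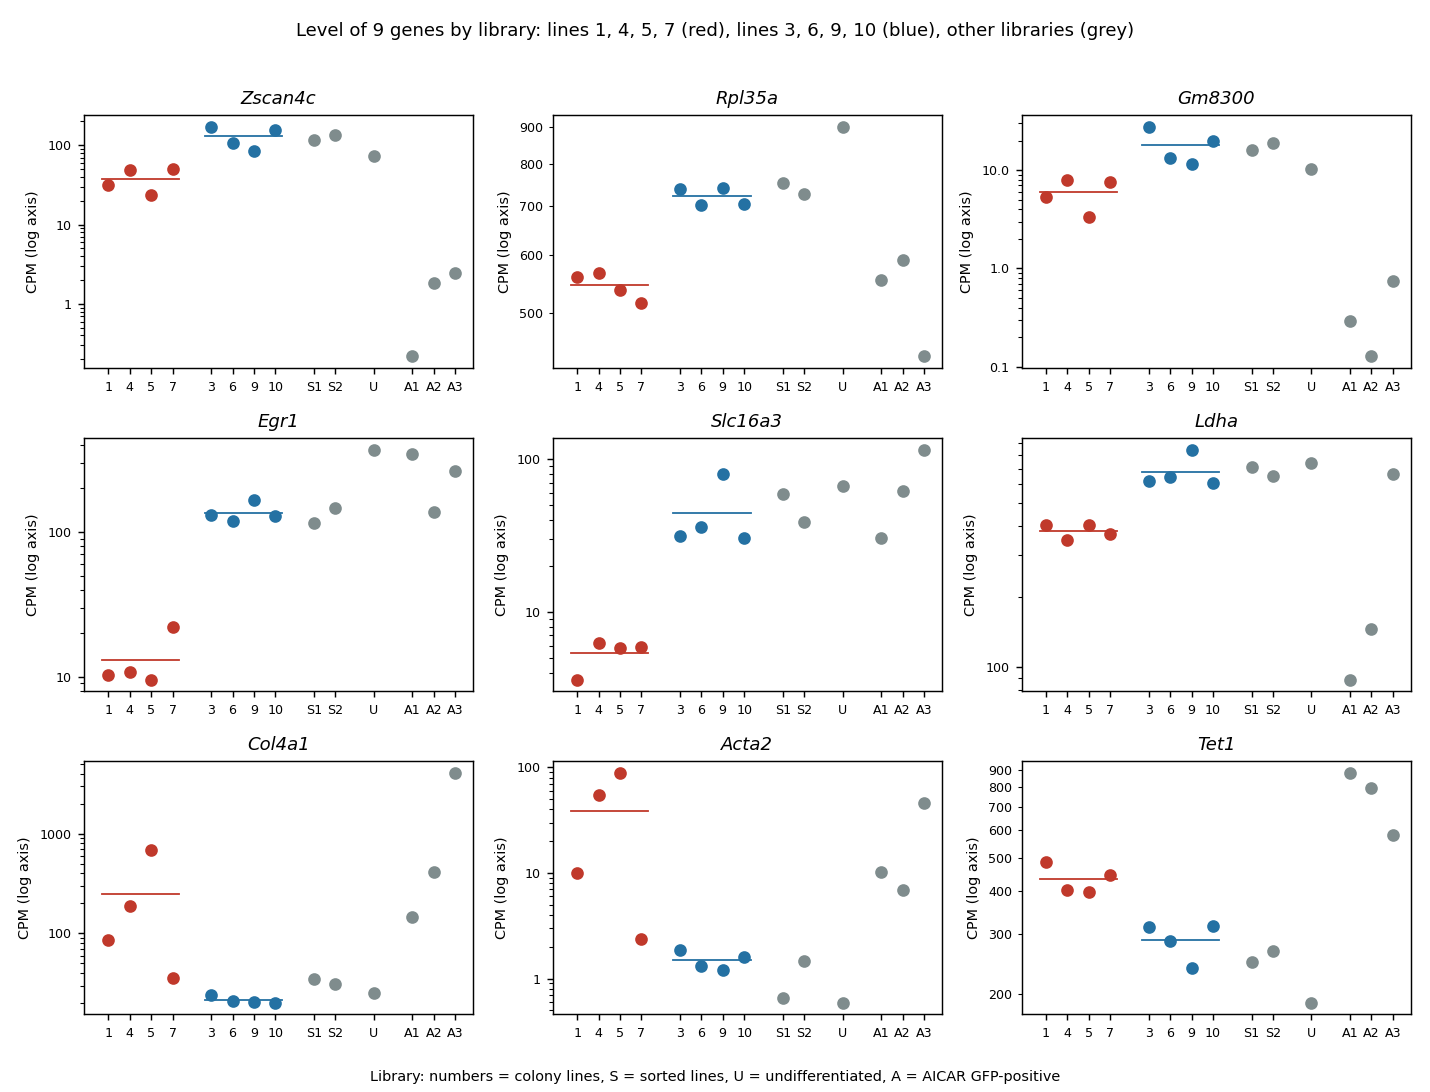
CPM of 9 genes on log axes in each of 14 libraries, with red points for lines 1, 4, 5 and 7, blue points for lines 3, 6, 9 and 10, grey points for other libraries, and horizontal lines at the set means (n = 4). Egr1 lies at 9.55 to 21.9 CPM in the red set and 120 to 165 CPM in the blue set, and Col4a1 spreads from 35.7 to 679 CPM within the red set.

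Immediate early genes, which are transcribed within minutes of a growth factor or stress signal, held some of the widest gaps. Egr1, a zinc finger transcription factor downstream of ERK, had 10.2, 10.8, 9.55 and 21.9 CPM in lines 1, 4, 5 and 7. It had 130, 120, 165 and 129 CPM in lines 3, 6, 9 and 10. The means were 13.1 ± 5.88 and 136 ± 20.0 CPM (SD, n = 4), a ratio of -3.38 with an SE of 0.34. Line 7 lay above the others of its set but far below every line of the other set. Fos had 2.02, 2.88, 2.17 and 8.42 CPM against 13.6, 16.4, 28.6 and 17.2 CPM, a ratio of -2.29 with an SE of 0.62, or -3.01 without line 7. Fosb, its relative, had 0.144 to 0.434 CPM against 2.15 to 6.45 CPM, a ratio of -3.82 on 8 and 117 reads.

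Their dimer partner Jun had 4.75, 2.73, 5.79 and 3.87 CPM against 12.6, 10.3, 19.2 and 12.6 CPM, a ratio of -1.67. Jund (-0.90), Junb (-0.56), the MAP kinase phosphatase Dusp1 (-0.91), Ier2 (-0.59) and Srf (-0.27) also lay lower with no overlap. In all, 9 of 18 measured immediate early genes lay lower, 7 of them by at least 1.5-fold. Myc lay higher, at a ratio of 0.42, and Nr4a1 (0.03) and Klf10 (0.02) overlapped. The list was put together after values were seen, so its count only describes it. After centring by length 9 still lay lower and Egr1 had a ratio of -3.41. Jund, Junb and Ier2 are on chromosome 8, whose genes were low in line 7, and without that line their ratios were -0.80, -0.58 and -0.40.

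For all 9 of these genes both sorted lines and the undifferentiated library lay nearer to lines 3, 6, 9 and 10. Egr1 was at 116 and 148 CPM in the sorted lines, at 371 CPM in the undifferentiated library and at 346, 137 and 264 CPM in the AICAR GFP-positive cells. So every library shown outside lines 1, 4, 5 and 7 had at least 116 CPM of Egr1.

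A further group covered glycolysis and the response to low oxygen. Glycolytic enzymes turn glucose into pyruvate and lactate, and under low oxygen the HIF transcription factors raise many of their genes by binding elements with the core ACGTG. Of 23 measured genes on this list, 17 lay lower in lines 1, 4, 5 and 7 with no overlap, 10 of them by at least 1.5-fold, and 0 lay higher. The median ratio was -0.60, and after centring by length it was -0.59 with 16 of 23 lower. To show this core, the 250 bases before the start site are given for 3 genes that lay lower, Ldha, Slc16a3 and Bnip3. They were picked by hand and not by the size of the gap. The sequences were read from the RefSeq promoter table (build GRCm38.p6, 5′ to 3′ on the gene's strand). Capitals mark ACGTG or its reverse complement CACGT.

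The promoter of Ldha, at chr7:46845554-46845803 on the plus strand, holds 5 matches, since each CACGTG matches on both strands.
Ldha: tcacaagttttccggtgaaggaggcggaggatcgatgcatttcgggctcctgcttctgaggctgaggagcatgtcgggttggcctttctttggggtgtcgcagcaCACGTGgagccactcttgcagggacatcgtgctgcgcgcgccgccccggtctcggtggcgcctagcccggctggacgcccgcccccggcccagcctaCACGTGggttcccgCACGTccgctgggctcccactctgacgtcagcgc
The promoter of Slc16a3, at chr11:120948817-120949066 on the plus strand, holds 2 matches.
Slc16a3: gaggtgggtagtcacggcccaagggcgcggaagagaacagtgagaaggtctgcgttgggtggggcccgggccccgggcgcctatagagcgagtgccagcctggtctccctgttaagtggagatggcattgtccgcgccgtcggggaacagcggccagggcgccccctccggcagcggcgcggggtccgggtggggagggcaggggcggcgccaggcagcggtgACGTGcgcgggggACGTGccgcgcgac
The promoter of Bnip3, at chr7:138909507-138909756 on the minus strand, holds 2 matches, which overlap.
Bnip3: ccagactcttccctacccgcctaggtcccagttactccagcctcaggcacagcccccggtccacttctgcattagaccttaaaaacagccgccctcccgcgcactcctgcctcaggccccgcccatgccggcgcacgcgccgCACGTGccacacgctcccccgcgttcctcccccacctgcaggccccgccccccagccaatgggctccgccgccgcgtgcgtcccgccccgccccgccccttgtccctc
Over promoter windows of 250 bases before to 50 after the start, ACGTG was found on either strand for 11 of the 16 list members with no overlap that had an entry (68.8%). The share was 30.2% over the 8040 tested genes with an entry and 21.8% over all 27025 promoters. It was 27.0% for the genes that lay lower by at least 1.5-fold (111 with an entry) and 19.2% for those that lay higher (78). The motif TGCACAC, reported for Zscan4 binding, was found for 2 of the 111 (1.80%) and 4 of the 78 (5.13%), beside 5.02% of all promoters. A match is a string of letters in this window and does not show that a factor binds. The glycolysis and hypoxia list holds genes of the response in which ACGTG is known to act. Its share of 68.8% can follow from that choice and does not bear on the split. List members whose sets overlapped were not counted.

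Slc16a3, the lactate exporter MCT4, had 3.60, 6.21, 5.79 and 5.90 CPM in lines 1, 4, 5 and 7 and 31.1, 36.1, 79.2 and 30.3 CPM in lines 3, 6, 9 and 10. The ratio was -3.04 with an SE of 0.42. Line 9 was well above the rest of its set, and without it the ratio was -2.60. Slc16a3 belongs to a second list of hypoxia-induced genes, put together after values were seen, of which 6 of 18 lay lower and 2 higher. After centring by length 6 lay lower and 1 higher.

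Bnip3, a mitophagy receptor, had 2.59, 4.70, 5.64 and 5.22 CPM against 17.1, 16.1, 33.1 and 15.0 CPM, a ratio of -2.16 with an SE of 0.37. Ndufa4l2, a HIF-induced relative of a respiratory chain subunit, had 2 reads in all in lines 1, 4, 5 and 7 and 91 in lines 3, 6, 9 and 10. The ratio of these summed reads, scaled by library size, was 44.1 to 1 in favour of the second set, with a 95% counting interval of 11.9 to 369.3. From the mean CPM the gap was 42.1-fold, and 23.7-fold without line 9, and the log2 ratio went from -5.40 to -6.06 without line 7. The prolyl hydroxylases that mark HIF for degradation lay lower as well, Egln3 at a ratio of -1.55 and Egln1 at -1.12. Egln1 is on chromosome 8, and without line 7 its ratio was -0.98.

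The enzymes of the pathway itself had smaller ratios at far higher levels. Ldha, which makes lactate, had 402, 349, 402 and 370 CPM against 620, 645, 843 and 611 CPM. The means were 381 ± 25.8 and 680 ± 110 CPM (SD, n = 4), a 1.79-fold gap. Triosephosphate isomerase Tpi1 (-0.86), aldolase Aldoa (-0.73), phosphofructokinase Pfkl (-0.71) and phosphoglycerate kinase Pgk1 (-0.64) followed. Pkm (-0.36), Gpi1 (-0.37), Hk1 (-0.35) and Gapdh (-0.25) lay lower by under 1.5-fold. The glucose transporter Slc2a1 lay lower at -0.42, while Slc2a3 (-0.16), Hk2 (0.07), Pdk1 (-0.04) and Vegfa (-0.88) overlapped. The HIF subunits themselves lay the other way. Hif1a had 217 ± 10.2 against 177 ± 16.7 CPM (SD, n = 4), a ratio of 0.29, and Epas1 (HIF-2α) had a ratio of 0.61. Both ratios are as scaled and not centred by length. That of Epas1 is also the highest on the second list of hypoxia-induced genes.

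Line 9 was the highest of its set for 16 of the 17 genes, whereas it was the lowest of the same set for 9 of the 10 2-cell-like genes. Line 3, highest of the set for 7 of the 10 2-cell-like genes, was the lowest for 9 of the 17. The order of the lines within the set therefore differed between the groups of genes. Both sorted lines lay nearer to lines 3, 6, 9 and 10 for 15 of the 17 genes and the undifferentiated library for 16. Ldha had 710 and 653 CPM in the sorted lines and 740 CPM in the undifferentiated library. The AICAR GFP-positive replicates differed among themselves, with 88.8 and 146 CPM of Ldha in replicates 1 and 2 and 665 CPM in replicate 3. Replicates 1 and 2 were sequenced in another project than all other libraries used here.

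**Figure D3:**
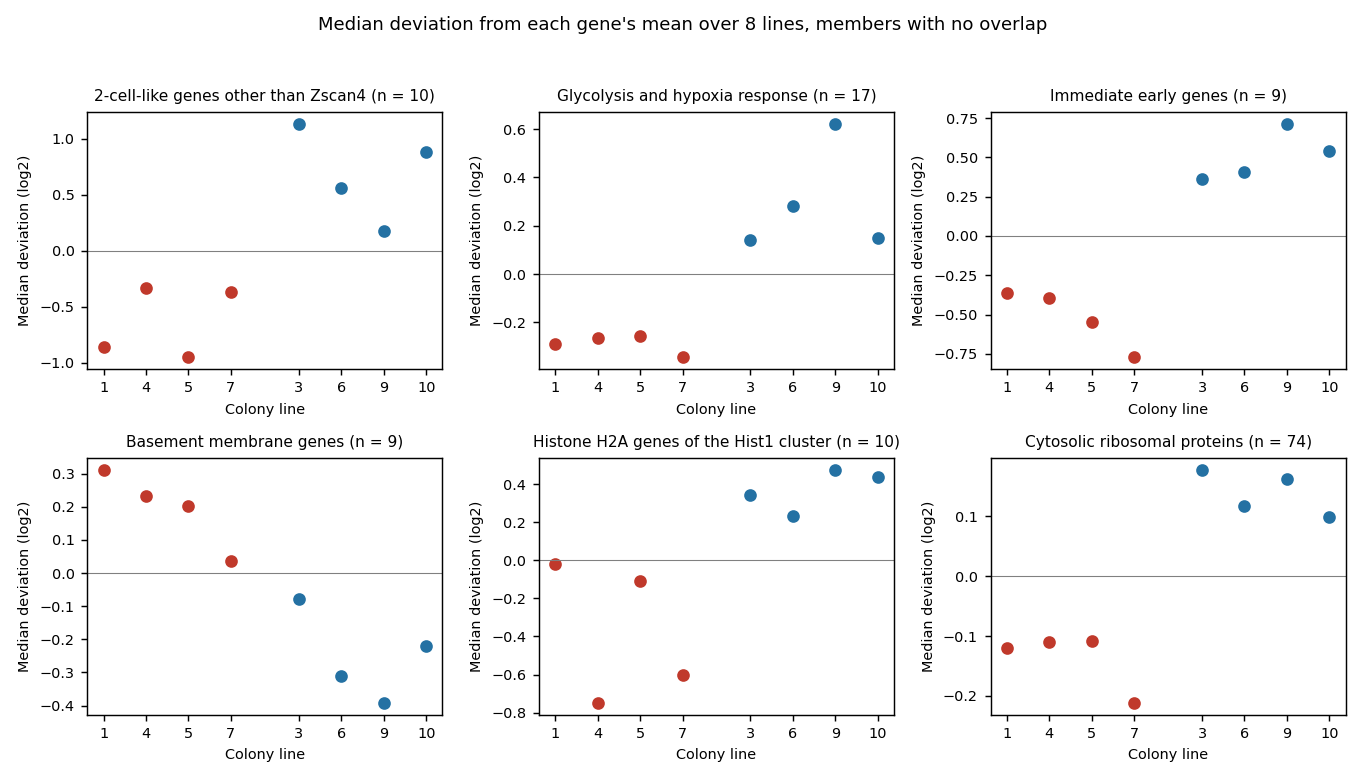
Median deviation, in log2, of the members with no overlap from each gene's mean over the 8 colony lines, for 6 gene groups, with red points for lines 1, 4, 5 and 7 and blue points for lines 3, 6, 9 and 10. Line 9 is the lowest blue point for 2-cell-like genes (0.18) and the highest for glycolysis and hypoxia genes (0.62).

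Cytosolic ribosomal proteins followed Rpl35a, a member of the same class on which the split was chosen. Of 78 measured, 74 lay lower in lines 1, 4, 5 and 7 with no overlap, 0 of them by as much as 1.5-fold, with a median ratio of -0.27. Rpl35a itself had 545 ± 23.7 against 722 ± 22.0 CPM (SD, n = 4), a ratio of -0.41. Rps14 had the lowest ratio with no overlap, -0.52, at 685, 695, 699 and 641 CPM against 988, 930, 1016 and 965 CPM. The exceptions were Rpl3l, Rpl39l, Rps13 and Rpl4, whose sets overlapped. The gene models of these proteins are short, with a median of 544 bases beside 1621 over all entries. After centring by length 29 of 78 lay lower, the median ratio was -0.09, and that of Rpl35a was -0.16.

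Other sets of short genes shared this. Subunits of the respiratory chain lay lower in 56 of 72 cases and in 15 after centring, with median ratios of -0.25 and -0.07. Mitochondrial ribosomal proteins lay lower in 24 of 73 and in 8 after centring. Both lists were made after values were seen. Small nucleolar RNAs, whose models are shorter still (median 98 bases), did not: 5 of 27 measured lay higher, 0 lower. After centring by length 10 lay higher and 0 lower, and the median ratio went from 0.19 to 0.40. That list, too, was made after values were seen. Snord47 had 7.05, 7.27, 8.39 and 6.91 CPM against 3.73, 3.83, 4.79 and 3.81 CPM, but such RNAs lie inside host genes and are mostly too short for this kind of library. Ribosome biogenesis genes, with longer models, lay higher in 4 and lower in 1 of 28 cases.

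The histone H2A genes of the Hist1 cluster on chromosome 13 lay lower in 10 of 10 cases by at least 1.5-fold, with a median ratio of -0.71, or -0.48 after centring by length. Hist1h2ad had 298, 181, 276 and 199 CPM against 379, 357, 422 and 406 CPM. Lines 4 and 7 were low and lines 1 and 5 stood between them and the other set. The 10 genes are near-identical in sequence and gave near-identical ratios (-0.73 to -0.71), so they are close to 1 measurement. Their transcripts mostly lack a poly(A) tail, which the library kit selects. H2afx (-0.46) and H2afz (-0.37), variant histones with poly(A) tails, lay lower as well, and Hist1h2bc lay higher (0.39).

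Acta2, Tagln and genes of the basement membrane gave the largest ratios in the other direction, with wide spread. Collagen IV and laminin form the sheet under epithelia, which parietal and primitive endoderm make in the early embryo. Col4a1 had 85.4, 188, 679 and 35.7 CPM in lines 1, 4, 5 and 7 and 24.0, 21.1, 20.5 and 20.2 CPM in lines 3, 6, 9 and 10. The means were 247 ± 295 and 21.4 ± 1.72 CPM (SD, n = 4), a ratio of 3.53 with an SE of 0.86. Line 5 was high and line 7 lay just above the other set, which was uniform. Without line 5 the gap went from 11.5-fold to 4.81-fold. Col4a1 is on chromosome 8, and without line 7 its ratio was 3.89.

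Col4a2, its partner chain with an adjoining start on chromosome 8, had 46.2, 108, 342 and 12.1 CPM against 10.0, 5.74, 8.38 and 6.16 CPM, a 16.8-fold gap that was 7.33-fold without line 5. The laminin chains Lamb1 (ratio 1.82) and Lama1 (1.38) also lay higher. Without line 5 the ratio of Lamb1 was 1.14. Lama1 had 136, 136, 280 and 137 CPM against 74.6, 59.7, 65.0 and 66.0 CPM, so that line 5 was high and the other 3 alike. Of 17 measured basement membrane genes, a list made after values were seen, 9 lay higher and 0 lower. After centring by length 5 lay higher and 1 lower, since these models are long. Lamc1 (0.38, or 0.21 after centring) still lay higher, and Hspg2, Nid2, Agrn and Col18a1 then overlapped.

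Acta2, smooth muscle actin, had 9.93, 54.7, 89.0 and 2.36 CPM against 1.87, 1.33, 1.20 and 1.61 CPM, a ratio of 4.70 with an SE of 0.76. Tagln, an actin-binding protein of smooth muscle, had 4.46, 25.5, 49.9 and 2.02 CPM against 0.861, 1.03, 1.35 and 1.17 CPM. In both, lines 4 and 5 were high and line 7 was close to the other set. They were the only 2 of 7 measured fibroblast and mesenchyme genes that lay higher, and the other 5 overlapped. Without line 5 the gap in Acta2 went from 26.0-fold to 14.9-fold and that in Tagln from 18.6-fold to 9.65-fold. The chaperone genes Clu (2.63) and Cryab (2.52) and tissue factor F3 (2.52) were likewise highest in line 5. Without that line their gaps were 2.62-, 2.84- and 2.70-fold, against 6.20-, 5.75- and 5.73-fold with it. Fst, the activin antagonist follistatin, had 3.89, 3.94, 5.21 and 3.71 CPM against 1.15, 0.884, 1.80 and 1.61 CPM, a ratio of 1.62.

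Of the 9 measured genes of primitive and visceral endoderm, 6 lay higher and 1 lower. They include Col4a1, Col4a2, Lamb1 and Lama1, named above. Dab2, an endocytic adaptor of endoderm, had 1.87, 4.09, 8.10 and 2.36 CPM against 0.574, 0.736, 0.449 and 1.03 CPM. The 6 endoderm markers Gata4, Gata6, Sox17, Sox7, Pdgfra and Dab2 summed to 6.06 to 26.8 CPM in lines 1, 4, 5 and 7 and 2.21 to 4.98 CPM in lines 3, 6, 9 and 10. Line 5 had the highest sum, and Dab2 is part of each sum. Taken singly, Gata4 overlapped, with 0.505 CPM in line 7 and 1.61 CPM in line 10. Pdgfra overlapped as well, with 1.30 CPM in line 1 and 2.01 CPM in line 3. Gata6 and Sox17 did not overlap, at low levels. Sox7 was near 0, with 8 reads in the first set and 1 in the second. In AICAR GFP-positive replicate 3 the same sum was 567 CPM.

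The 6 fibroblast markers Col1a1, Col1a2, Col3a1, Postn, Lum and Dcn summed to 18.6, 124, 14.2 and 1.85 CPM against 7.18, 2.21, 1.65 and 1.47 CPM, with line 7 inside the range of the other set. Col1a1 was at 74.9 CPM in line 4 and at 0.586 to 8.93 CPM in the other 7 lines, while Dcn and Lum were at or near 0 in all 8. Trophoblast markers summed to 2.74 to 5.76 and 2.05 to 3.01 CPM, and primed epiblast markers to 2.03 to 4.04 and 2.05 to 3.98 CPM. The part of other cell types in these ratios was not tested.

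Naive markers of the pluripotent state differed little as a sum, while 8 of 18 general pluripotency genes lay higher, as given below. The 7 naive markers Zfp42, Nanog, Esrrb, Klf2, Tfcp2l1, Pou5f1 and Sox2 summed to 3486 to 3723 CPM in lines 1, 4, 5 and 7 and 3695 to 3746 CPM in lines 3, 6, 9 and 10, so the markers of the labelled ES cells were present in every line. Pou5f1 (Oct4) had 1460, 1450, 1453 and 1464 CPM against 1607, 1570, 1582 and 1556 CPM, a ratio of -0.12 that was -0.01 after centring by length. Nanog (-0.11) and Esrrb (0.15) overlapped. Sox2 lay higher at 332 ± 18.5 against 287 ± 17.3 CPM (SD, n = 4), a ratio of 0.21.

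Zfp42, the gene of the GFP reporter, had 629, 579, 603 and 358 CPM against 563, 558, 536 and 563 CPM. Zfp42 and Klf2 (259, 268, 247 and 160 CPM against 277, 272, 301 and 280 CPM) are both on chromosome 8, and both were low in line 7. Without that line Zfp42 had a ratio of 0.12 and Klf2 of -0.13.

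Among 19 naive genes 3 lay higher and 3 lower. Tfcp2l1, a transcription factor that sustains naive self-renewal, had 177, 192, 179 and 217 CPM against 148, 133, 122 and 139 CPM, a ratio of 0.50 and 0.53 after centring. Klf5 (0.31) and Nr5a2 (0.28) lay higher too. Of 18 general pluripotency genes 8 lay higher and 1 lower, and 8 and 0 after centring. Trim71 (0.49), Myc (0.42) and Zfp281 (0.33) had larger ratios than Sall4 (0.26). Of 14 LIF-STAT3 genes 6 lay higher and 3 lower, and 5 and 1 after centring. Without line 7 the counts were 6 and 6. Junb (-0.56) was among the 3 that lay lower, and receptors for LIF were among the 6 that lay higher. Lifr had a ratio of 0.52 (0.40 with overlapping sets after centring) and Il6st, the shared signal transducer gp130, 79.9 ± 4.42 against 57.4 ± 6.14 CPM (SD, n = 4), a ratio of 0.48.

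Of the 3 dioxygenases that oxidise methylated cytosine, Tet1 and Tet2 lay higher. Tet1 had 484, 401, 397 and 446 CPM against 314, 286, 238 and 316 CPM, and Tet2 273, 238, 238 and 267 CPM against 179, 163, 187 and 190 CPM. Their ratios were 0.58 and 0.50, and 0.37 and 0.28 after centring, with no overlap in either case. The DNA methyltransferase Dnmt1 (0.22) overlapped after centring (0.05), and Dnmt3b (0.10) and Tet3 (-0.01) overlapped before and after. Dnmt3a overlapped at -0.29 and lay lower after centring, at -0.36.

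Zinc finger genes named Zfp were a large group on this side, in a list made after values were seen: 81 of 307 lay higher and 6 lower. After centring by length 74 lay higher, with a median ratio of 0.16 against 0.20 before. In the eighth of all entries with the lowest GC content 25.2% lay higher, and the part of GC content in this list was not tested. Zfp26 had 34.1, 38.0, 33.6 and 33.4 CPM against 19.9, 21.1, 20.5 and 21.1 CPM, a ratio of 0.75 with an SE of 0.05. Zfp493 (0.82), Zfp759 (0.81) and Zfp345 (0.74) gave ratios of like size. Both sorted lines lay nearer to lines 3, 6, 9 and 10 for 70 of the 81 and the undifferentiated library for 80.

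Targets of p53 lay higher in 6 and lower in 1 of 19 cases, and in 9 and 0 after centring, with a median ratio of 0.30 either way. Trp53inp1, a p53-induced regulator of autophagy and cell death, had 73.4, 62.7, 60.5 and 104 CPM against 52.8, 48.2, 42.7 and 54.1 CPM. Eda2r (0.65) and Polk (0.57) lay higher, while Cdkn1a (-0.13) and Mdm2 (0.23) overlapped and Trp53 itself had a ratio of -0.01. Of 21 AMPK subunits and targets, the pathway AICAR acts on, 5 lay higher and 1 lower. Prkab2, a regulatory subunit of AMPK, had 5.61, 6.52, 6.08 and 4.04 CPM against 3.87, 2.50, 4.04 and 3.81 CPM. Line 7 had 4.043 CPM and line 9 had 4.042 CPM, so the sets just failed to meet. Sirt1 (0.40) and Foxo3 (0.47) lay higher and Acacb, an acetyl-CoA carboxylase, lower (-0.39).

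**Figure D4:**
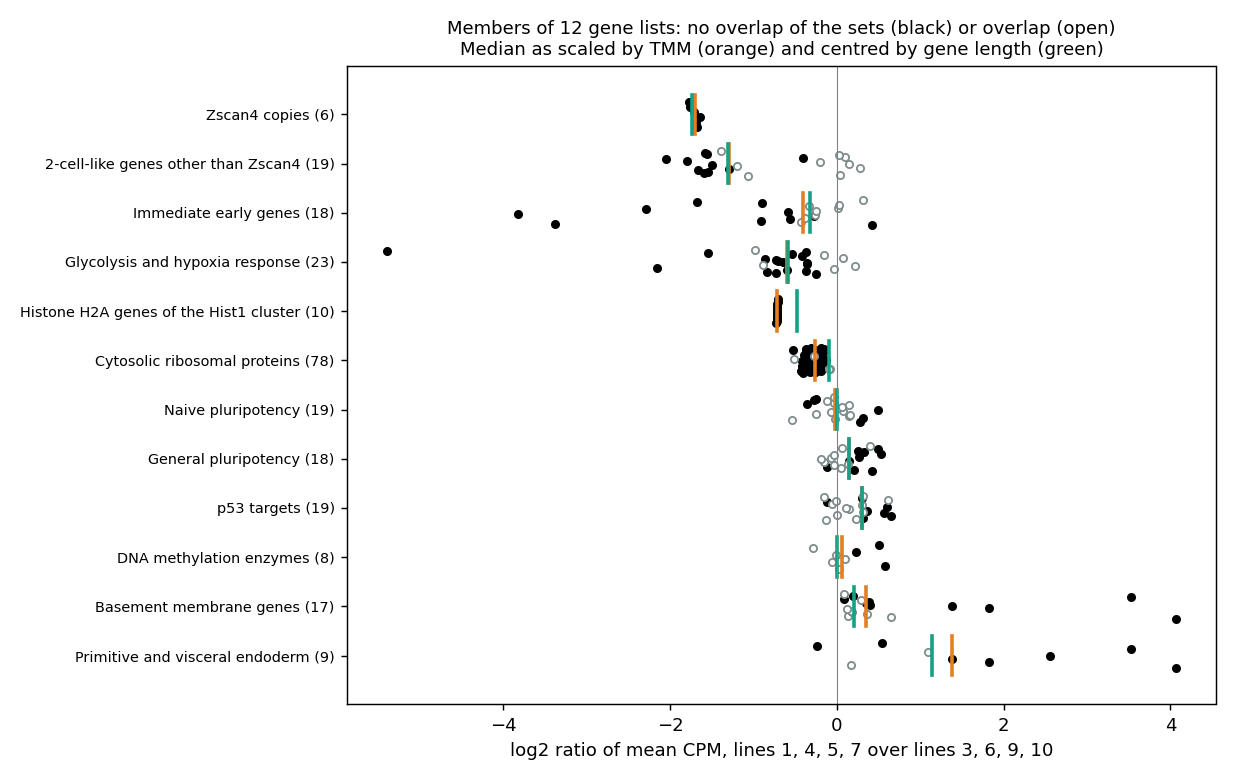
Log2 ratio of each measured member of 12 gene lists, with black points where the sets do not overlap and open points where they do, and list medians as scaled (orange) and centred by gene length (green). The numbers of measured members stand in brackets. Glycolysis and 2-cell-like medians hardly move with the centring, while that of the cytosolic ribosomal proteins goes from -0.27 to -0.09.

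Line 7 stood apart from the other 7 lines. The median deviation of 409 chromosome 8 genes with at least 20 CPM from their mean over the 8 lines was -0.48 in line 7 and 0.05 to 0.10 in the other lines, in log2. Reads of the Y-linked genes Kdm5d, Eif2s3y, Ddx3y and Uty numbered 3 in line 7 and 1159 to 2088 in the other lines. Chromosome 8 had 124 of 613 entries lower with no overlap (20.2%) and 9 higher, with a median ratio of -0.14. Without line 7 it had 126 lower (20.6%) and 90 higher, with a median ratio of -0.03. No overlap is easier to meet without that line. Over all 11327 entries 1868 then lay lower and 1921 higher, beside 1412 and 1352 with line 7. Of the 206 genes lower by at least 1.5-fold, 22 were on chromosome 8. Called anew without line 7, 285 genes in all lay lower by at least 1.5-fold, and 15 of these were on chromosome 8.

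**Figure D5:**
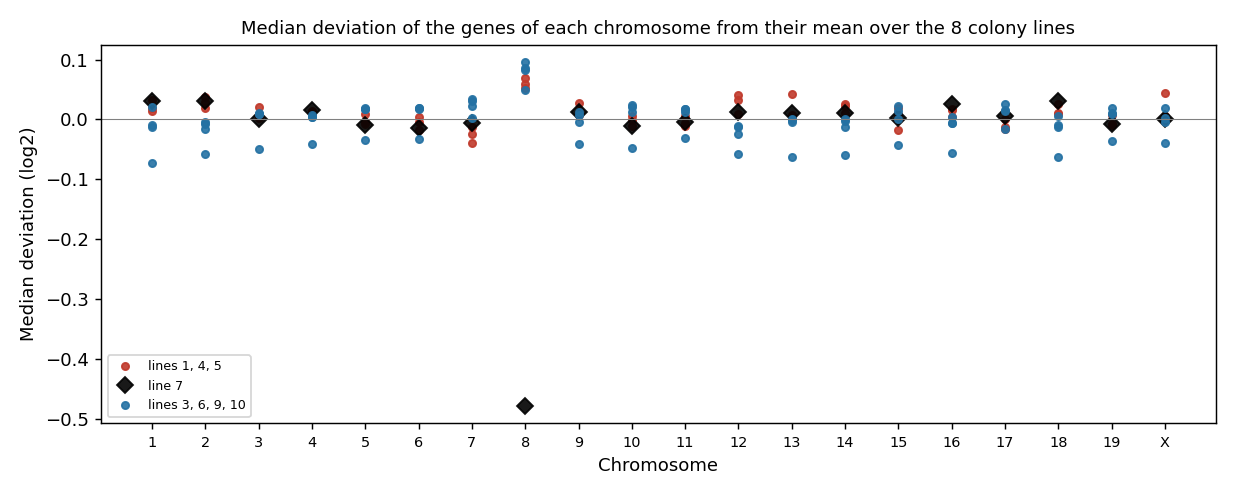
Median deviation, in log2, of the genes of each chromosome from their mean over the 8 colony lines, for genes with at least 20 CPM, with line 7 as black diamonds, lines 1, 4 and 5 in red and lines 3, 6, 9 and 10 in blue. Chromosome 8 of line 7 lies at -0.48.

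In the sorted lines and the undifferentiated library, which had no part in the division, most genes that followed it lay nearer to lines 3, 6, 9 and 10, and in the AICAR GFP-positive libraries most lay nearer to lines 1, 4, 5 and 7. Of the 206 genes lower in lines 1, 4, 5 and 7 by at least 1.5-fold, 167 (81.1%) lay on the side of lines 3, 6, 9 and 10 in both sorted lines, and 8 on the other side in both. In the undifferentiated library 168 (81.6%) lay on the side of lines 3, 6, 9 and 10. The 206 include the 6 Zscan4 copies, on which the split was chosen, and the 10 near-identical H2A genes. All of these lay on the side of lines 3, 6, 9 and 10 in both sorted lines. Of the 129 genes higher by at least 1.5-fold, 86 (66.7%) lay on the side of lines 3, 6, 9 and 10 in both sorted lines and 12 on the other side. In the undifferentiated library 105 (81.4%) did so. In the 3 AICAR GFP-positive libraries 79 to 85 of the 206 and 34 to 48 of the 129 lay on the side of lines 3, 6, 9 and 10. The same shares over all tested entries were not computed. The difference between long and short genes also varied over these libraries. Relative to the mean of the 8 lines, the longest eighth minus the shortest was 0.15 to 0.24 in lines 1, 4, 5 and 7, -0.24 to -0.16 in lines 3, 6, 9 and 10, -0.38 to -0.23 in the sorted and undifferentiated libraries and 0.11 to 0.30 in the AICAR GFP-positive libraries, in log2.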

How the data were processed

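RNA from 19 libraries was sequenced from stranded mRNA libraries, per the labels' protocols, and 14 of them are used here. The counts, whole reads per gene, were made by the authors with rpkmforgenes from uniquely mapped reads, on a RefSeq table for build mm9 with 3′ untranslated regions left out, per the file headers. No strand option stands in those headers. The RPKM values were computed by the authors in the same run, per the file headers, and serve here for gene model lengths and as an alternative scale. Reads were prepared with Trimmomatic 0.3.3, TopHat2 2.0.14, Bowtie2 2.2.5 and CASAVA 1.8.2, per the submitters' processing notes.

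CPM are counts over library sizes scaled by edgeR's TMM factors (edgeR 4.0.16, R 4.3.3) over 14 libraries. Entries needed a mean of 10 reads over the 8 lines, 3 reads being the limit that a count of 0 allows. Depth was 5937370 to 7370560 reads in genes per line, and intervals cover counting error only. No test was run on the division. Length centring removed from each library the median deviation from the 8-line mean within 50 length bins. Chromosomes and promoters came from RefSeq (GRCm38.p6). Chromosomes were matched by RefSeq transcript or else by symbol, for 99.8% of entries. Promoters were matched by symbol, for 8040 of 11267 tested names. GC content came from GENCODE transcripts (99.4%). Lines of a set differed beyond counting noise, the chi-square divided by its degrees of freedom being 1.89 to 8.14 over 12 pairs, and the labels do not say whether they are separate cultures.

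Members, gene lists and the naming rule were all chosen with earlier results of these data known. The rule names Zscan4c, Rpl35a, the other Zscan4 copies, Pou5f1, Nanog, Sox2, Esrrb, Zfp42, the 15 largest and 15 smallest ratios with no overlap and at least 4 CPM in the higher set, and up to 4 members with no overlap of each of 27 lists. Another 8 lists and members named beside them were chosen after their values were seen.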

Additional observations from a re-analysis of the deposited data

Results flagged for a closer look

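Among 204 sets of 4 lines of the named genes, 15 had 1 line far from the other 3 by Dixon's ratio, where chance gives about 1 in 20. Line 7 was the highest of lines 1, 4, 5 and 7 for Egr1 (21.9 CPM, the others 9.55 to 10.8), Fos (8.42 CPM) and Foxo3 (35.2 CPM). Line 5 was the highest of that set for Clu (38.5 CPM), Fst (5.21 CPM) and Lama1 (280 CPM), line 4 for Gm5039 (7.12 CPM), and line 1 was the lowest for Slc16a3 (3.60 CPM). Line 9 was the highest of lines 3, 6, 9 and 10 for Slc16a3 (79.2 CPM, the others 30.3 to 36.1), Bnip3 (33.1 CPM) and Ndufa4l2 (7.79 CPM). It was the lowest of that set for Rif1 (595 CPM) and Nop56 (594 CPM). Line 6 was the lowest of its set for Tead4 (20.9 CPM) and Prkab2 (2.50 CPM).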

How the results depend on the processing

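No paired analysis was possible because the sets share no colony number and no result comes from a test. The counts of 129 genes higher and 206 lower, of 2764 with no overlap at any fold, and of 253 genes for which both sorted lines lay on the side of lines 3, 6, 9 and 10 stayed within 1.5 times under other scalings and the deposited RPKM. The same held after leaving out repeated names. With at least 50 reads the numbers were 67 higher, 88 lower and 137 on that side, and with a ratio of 2 they were 22, 74 and 82. With no filter 213 genes lay higher. Leaving out each line in turn gave 141 to 189 higher, 210 to 285 lower, 3138 to 3789 with no overlap and 245 to 369 on that side, the highest without line 7. With 3 lines in a set, no overlap is easier to meet. TMM or DESeq2 factors over 8 lines, and the centrings by length and GC content (chosen after seeing the data), give no value for the sorted lines. Of 102 named ratios, Zfp42, whose sets overlapped at -0.03, changed sign (0.03 centred by length, 0.12 without line 7), and no other did. In all, 30 moved by over 1 SD between lines with the length centring and 14 with the GC centring. Ratios on few reads, such as those of Ndufa4l2 and Fosb, are limited by depth.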

Other observations

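Other genes with large ratios belong to none of the groups above. Aire, the autoimmune regulator, had 1.15, 1.82, 1.01 and 1.68 CPM in lines 1, 4, 5 and 7 and 3.73, 5.16, 8.83 and 4.54 CPM in lines 3, 6, 9 and 10, a ratio of -1.97. As for the hypoxia genes, line 9 was the highest. Xlr5b, an X-linked lymphocyte-regulated gene, had 1.01, 1.52, 4.48 and 1.52 CPM against 6.17, 6.48, 5.24 and 5.13 CPM, with line 5 close to the other set. Its ratio was -1.43, and -2.10 without line 5. Grhl2, a transcription factor of epithelia, lay higher at 4.55 ± 1.03 against 1.76 ± 0.606 CPM (SD, n = 4). Rbm47, an RNA-binding protein, had 8.21, 10.9, 8.97 and 11.8 CPM against 4.45, 5.89, 3.89 and 4.25 CPM, a ratio of 1.11. The imprinted gene Peg10 had 118, 182, 157 and 98.7 CPM against 92.4, 78.8, 70.7 and 91.9 CPM, a ratio of 0.74 (0.62 with overlapping sets after centring by length).

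Genes of the G2 and M phases lay on both sides: 6 of 18 were higher and 5 lower, and after centring by length 1 was higher and 4 were lower. Cenpf, a long gene, had a ratio of 0.36 that was 0.11 with overlapping sets after centring. Ccnb1, with a shorter model, had 356, 352, 362 and 350 CPM against 424, 418, 399 and 432 CPM, a ratio of -0.24 and -0.20 after centring.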
